A study of Mus musculus with 4 samples.

Results

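The features described here are the 55 most abundant of 1517 named features in an RNA-seq count table of mouse embryonic stem cells. They were chosen by their own counts: a feature had to have a symbol and at least 3000 counts summed over the shGFP libraries. It also had to be free of any overlapping listed feature on the opposite strand. Of 65 features at or above that level, 8 were removed by the strand condition. A further 2 were removed because the rule leaves out symbols beginning with Hist, Zfp, Rpl or Rps and 4 further symbols. Those 4 are Nanog, Lars2, Rn7sk and Rpph1. Because the shGFP counts chose the members, their levels and their loss against shGFP are given as a description, without a test of the set.

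Total RNA was measured in V6.5 mouse embryonic stem cells, a pluripotent line, in 4 libraries. Of these, 2 came from cells transfected with a short hairpin RNA against GFP (shGFP, the control) and 2 from cells with a hairpin against NCAPH2 (shNCAPH2). NCAPH2 belongs to condensin II, a ring-shaped complex that compacts chromosomes. All cells were at passage 3, were kept in puromycin at 2 µg/mL for 5 days, and had been grown on irradiated feeder fibroblasts that were removed before harvest. Each hairpin is represented by a single construct name, with no second hairpin against NCAPH2 among the samples used here. RNA was treated with DNase I and depleted of ribosomal RNA, so RNAs without a poly(A) tail could be measured beside messenger RNAs. Separate cultures are not stated for the libraries within a group, and p-values therefore measure only the spread between libraries, which may be technical.

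Counts in named features summed to 507891 and 429907 in shGFP and to 243628 and 272426 in shNCAPH2. These sums are not sequencing depths, because the table holds only features that were lower in shNCAPH2. No named feature kept more than 67.8% of its shGFP count, so the direction of every member is a property of the list. The knockdown was not checked, since the Ncaph2 transcript was not analysed here. Of the cell type markers looked for, the list held 5 of 12 of embryonic stem cells, 1 of 12 of feeder fibroblasts and 1 of 9 of differentiated cells, and none was a member. The defining markers are thus mostly missing from the list, and the cell type was not checked beyond this. Of the 5 listed stem cell markers, Nanog and Zfp42 could not be members, since the rule leaves out their symbols.

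Several kinds of sequence bear on how an abundant feature is counted in ribosomal-RNA-depleted libraries. A processed pseudogene is a copy of a messenger RNA that was reverse transcribed and inserted elsewhere in the genome, so reads of the parent gene can match it. Short interspersed elements such as mouse B2 are RNA polymerase III-derived retrotransposons present in very many copies, often in introns and the last exons of genes. Where counting does not use the strand, reads of a gene and of a gene that overlaps it on the opposite strand cannot be told apart. Whether strand was used here is not given in the sources used.

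Of the 55 members, 54 matched a gene of the GENCODE mouse annotation (release 21, GRCm38). The match was by symbol or synonym, place and strand. Tmem55b matched through its newer symbol, Pip4p1, and Gm12913 matched no gene, so it has no transcript sequence here. The sequences shown first are those that members share with other genes. The first is a word of 31 bases, carried by more members than any other word of that length. It lies within the B2 element as that family is generally known, a name that comes from background knowledge since no repeat annotation was used. Its letters, as the transcript of Gm17494 holds them, and their reverse complement are the following.
Word as in Gm17494: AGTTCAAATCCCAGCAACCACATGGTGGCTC
Reverse complement: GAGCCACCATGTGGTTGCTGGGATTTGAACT

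The word stood in the transcripts of 25 of 54 members (46.3%), against 33 of 1446 other named features (2.28%) and 608 of 55450 annotated genes with a transcript sequence (1.10%). Its orientation was uneven among members. The reverse complement alone was present in 23, the forward letters alone in 1 (Gm17494), and both in 1 (Dhdh). Among the 33 other named features with the word, 23 held the reverse complement and 10 the forward letters. Over all annotated genes the orientations were nearly balanced, with 289 reverse, 307 forward and 12 with both. The word was picked because members share it, so its frequency among them describes the members and was not tested.

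Windows of 61 bases around the word are given for the 5 noncoding or pseudogene members that carry it, with the word in capitals and each read 5′ to 3′ along the feature's own strand (GENCODE transcripts, GRCm38). They show that the bases beside the word also resemble each other.
Gm17494 (forward; chr3:122289416-122289476, minus strand): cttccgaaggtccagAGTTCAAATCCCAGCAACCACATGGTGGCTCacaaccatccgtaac
Gm15541 (reverse; chr7:27503516-27503576, minus strand): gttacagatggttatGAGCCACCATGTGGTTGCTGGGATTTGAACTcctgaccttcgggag
D130007C19Rik (reverse; chr4:123902313-123902373, minus strand): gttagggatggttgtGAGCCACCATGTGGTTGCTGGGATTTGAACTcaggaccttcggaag
Gm12953 (reverse; chr4:116552206-116552266, plus strand): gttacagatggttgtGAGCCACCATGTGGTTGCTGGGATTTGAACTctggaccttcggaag
Gm15645 (reverse; chr7:105862196-105862256, plus strand): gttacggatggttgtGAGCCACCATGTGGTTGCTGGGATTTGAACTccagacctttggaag

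**Figure D1:**
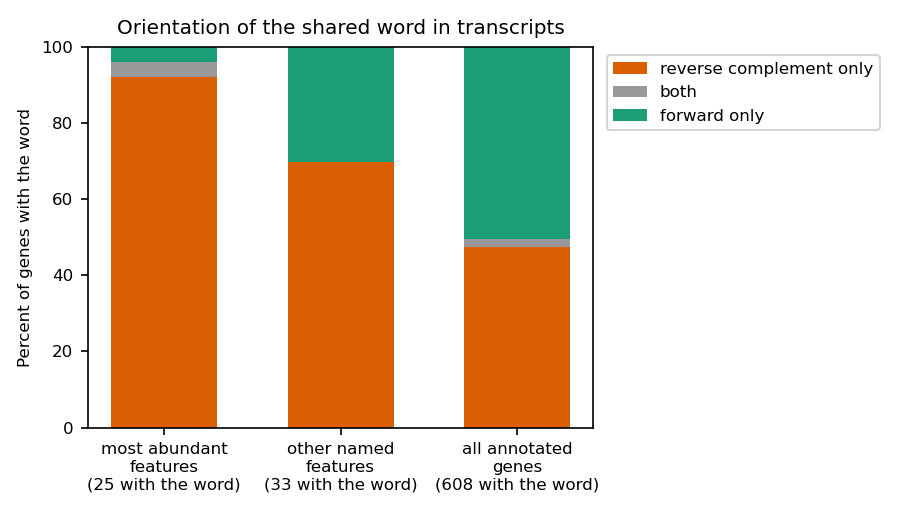
Stacked bars give, for each set of genes on the x axis, the percent of genes with the 31-base word (y axis) that hold its reverse complement only, both orientations or the forward letters only. Among the 25 members with the word 92% hold the reverse complement only, against 69.7% of 33 other named features and 47.5% of 608 annotated genes.

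By transcript type, 40 of the 55 members were protein-coding (72.7%), against 1186 of 1517 named features (78.2%). The rest comprised 5 antisense RNAs, 3 processed pseudogenes, 2 processed transcripts, 1 long intergenic noncoding RNA, 1 polymorphic pseudogene, 1 pseudogene and 1 transcribed processed pseudogene, and 1 feature was unmatched. By annotation no miRNA, snRNA, snoRNA, miscellaneous RNA or ribozyme was a member, although 3, 4, 5, 5 and 2 of these were among the named features. A list of 15 small noncoding RNA names or name patterns found 4 listed features, with 20 to 688 summed shGFP counts. No mitochondrial transcript and none of 18 long noncoding RNAs looked for, such as Malat1 and Neat1, was listed. Of 24 abundant housekeeping genes looked for, 13 were listed and none was a member. Their highest summed shGFP count was 946.

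Members took most of the counts in the list. They held 60.02% and 61.4% of named counts in the shGFP libraries, and 60.4% and 58.6% in the shNCAPH2 libraries. Per kilobase of annotated exon, the level of a member had a median of 844 counts in shGFP replicate 1 and 785 in replicate 2, against 6.92 and 5.45 for named features. In shNCAPH2 the medians were 405 and 467 for members and 2.37 and 2.65 for named features. The lowest level in shGFP replicate 1 was 183 counts per kilobase in Trpc4ap, which encodes an adaptor of the TRPC4 channel. The highest was 65795 in AY036118.

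The level of 3000 counts fell in a continuous range of values. Just above it lay Slirp (3107 summed shGFP counts), Trpc4ap (3186) and Ing4 (3216), and just below it Gm12940 (2972), Rpl13-ps1 (2956) and Gadl1 (2921). A level of 2000 would have given 69 members and a level of 5000 would have given 32.

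The shNCAPH2 count of a member, as a share of its shGFP count, had a median of 59.3% (range 2.23% to 67.4%). Over named features, most of them at far lower counts, the median was 46.7% (range 0% to 67.8%). Other named features with 300 to 2999 summed shGFP counts lay close to members. Their median was 59.1% for 172 without the shared word and 65.4% for 4 with its reverse complement alone. For 2 without a transcript sequence it was 57.9%. In bulk samples such as these, fewer cells of a type and less RNA per cell cannot be told apart. The groups did not overlap in 54 of 55 members, shNCAPH2 being the lower, beside 88.4% of all named features. The exception was Gm15444. Relative fold changes come from edgeR's quasi-likelihood test with TMM scaling over the 896 tested features, all of which lost counts. A value of 0 therefore means the typical loss, a positive value a smaller loss, and ± is a standard error (SE). On that scale 1 of 55 members, Gm12913, was called lower at an adjusted p under 0.05, beside 1.0% of tested features, and none was called higher. At an unadjusted p under 0.05 the edgeR test gave 4 members lower (Gm12913, AY036118, and Gm12895 with Gm12896, which have identical counts) and 0 higher. DESeq2 also called 1 lower, beside 0.396% of tested features, and 0 higher, and at an unadjusted p it gave 4 lower and 2 higher.

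The other 51 members formed a narrow band. They kept 44.8% to 67.4% of their shGFP count, and their relative log2 fold changes ran from -0.34 to 0.25 with SEs of 0.17 to 0.27. Of these, 35 were above 0 and 16 below it, and the lowest adjusted p was 0.999 (edgeR). The median log2 fold change was 0.07 over members and -0.004 over all tested features. With all libraries set to an equal size those medians moved to -0.75 and -0.84, and 44 members passed, beside 30.6% of tested features. No library totals were at hand to choose between the scalings.

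**Figure D2:**
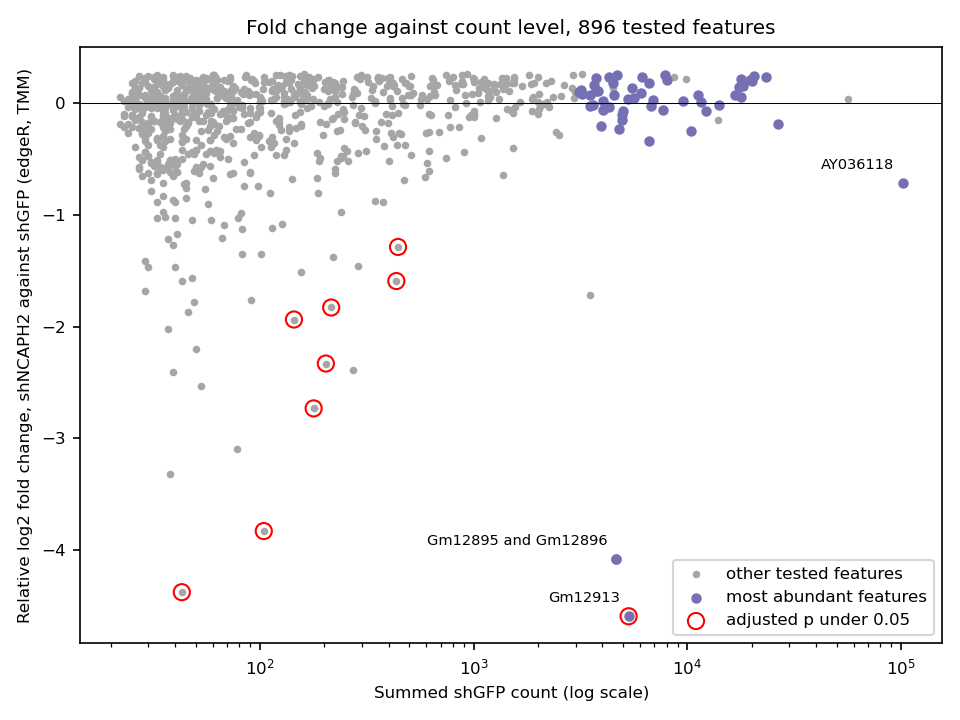
Each point is 1 of 896 tested features, with its summed shGFP count on a log x axis and its relative log2 fold change (edgeR, TMM scaling) on the y axis, where 0 is the typical loss. Among members, Gm12913 at -4.59 is the circled call, Gm12895 and Gm12896 lie together at -4.08, AY036118 lies at -0.72, and the other 51 lie between -0.34 and 0.25.

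AY036118 was the most abundant member. It is annotated as a long intergenic noncoding RNA (GRCm38 chr17:39847526-39848829, minus strand, 923 exon bases). It was counted at 60729 and 41096 in shGFP against 12843 and 22108 in shNCAPH2. All 4 values were the highest of any member in their library, and the groups did not overlap. The share of named counts it took was 12.0% and 9.56% in shGFP and 5.27% and 8.12% in shNCAPH2. It kept 34.3% of its shGFP count, and its relative log2 fold change was -0.72 ± 0.23 (SE; edgeR adjusted p = 0.281). Without shNCAPH2 replicate 2, the higher of its group, the value was -1.01, and without shNCAPH2 replicate 1 it was -0.39. The shNCAPH2 group is then 1 library, assumed to vary like the shGFP group. With equal library sizes it was -1.54 (edgeR adjusted p = 0.0326), a setting in which 44 members passed. AY036118 did not pass in edgeR with RLE size factors (adjusted p = 0.383), without a filter on low counts (0.134) or with a replicate block (0.759). It also did not pass with DESeq2 (0.996). All 893 of its 31-base words were also present in the same orientation in CT010467.1, a gene annotated as ribosomal RNA, and in the opposite orientation in Gm42418, a noncoding RNA over the same place. Reads of these features share their letters with it, and their part in the count was not tested. The libraries had been depleted of ribosomal RNA, and how much remained in each was not measured here.

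Gm12895 and Gm12896 are processed pseudogenes on chromosome 4 that had the same count in all 4 libraries. Each had 4414 and 223 (shGFP) against 24 and 121 counts (shNCAPH2). shGFP replicate 1 stood far above the other 3 libraries, at 19.8 times shGFP replicate 2, although the groups did not overlap. Their transcripts share a run of 224 of 226 bases, so their reads can hardly be told apart and they count as 1 measurement. The run is in capitals in both sequences (GENCODE transcripts, GRCm38).
Gm12895 (chr4:122455210-122455435, plus strand): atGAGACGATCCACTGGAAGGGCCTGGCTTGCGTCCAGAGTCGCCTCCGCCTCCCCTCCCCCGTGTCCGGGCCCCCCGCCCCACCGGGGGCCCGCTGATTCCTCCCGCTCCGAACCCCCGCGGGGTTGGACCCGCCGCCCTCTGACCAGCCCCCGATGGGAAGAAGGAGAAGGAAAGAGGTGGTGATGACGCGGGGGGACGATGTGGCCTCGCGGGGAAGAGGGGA
Gm12896 (chr4:122122847-122123072, plus strand): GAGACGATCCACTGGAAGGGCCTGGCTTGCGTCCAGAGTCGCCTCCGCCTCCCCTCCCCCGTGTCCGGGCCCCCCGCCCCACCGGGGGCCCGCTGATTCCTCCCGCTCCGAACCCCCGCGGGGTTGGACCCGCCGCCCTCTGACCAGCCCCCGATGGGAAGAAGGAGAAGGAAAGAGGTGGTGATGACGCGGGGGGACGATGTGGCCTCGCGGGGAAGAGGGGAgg

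Both kept 3.13% of their shGFP count, and the relative log2 fold change was -4.08 ± 1.04 (SE; edgeR adjusted p = 0.113). The pair passed with RLE size factors (adjusted p = 0.0455), without a filter on low counts (5.12e-09) and without shNCAPH2 replicate 1 (1.03e-19) or replicate 2 (0.00892). It did not pass with DESeq2 (adjusted p = 0.996), with a replicate block in edgeR (0.899) or with equal library sizes (0.0532). Without shGFP replicate 1 the fold change was -0.97 and did not pass (0.0622), and without shGFP replicate 2 it was -4.99 and passed. A fit without 1 library leaves that group with 1 sample, assumed to vary like the other group, so its p has no replicate check in that group. The size of the difference rests on shGFP replicate 1.

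Gm12913, the 1 called member, lies at chr4:78773677-78774221 on the minus strand. It was counted at 4205 and 1098 in shGFP against 51 and 67 in shNCAPH2. Both shGFP values lay far above both shNCAPH2 values, and the shGFP libraries themselves differed 3.83-fold. It kept 2.23% of its shGFP count, and its relative log2 fold change was -4.59 ± 0.48 (SE; edgeR adjusted p = 0.00162). It was called under each of the alternative settings and left-out libraries tried, but the value fell in size to -3.53 without shGFP replicate 1 and rose to -5.19 without shGFP replicate 2. With equal library sizes it was -5.49.

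A first large set of members overlapped or copied another gene. An exon on the opposite strand overlapped 30 of 54 matched members (55.6%), against 625 of 1500 matched named features (41.7%) and 9248 of 55536 annotated genes (16.7%). Such overlap was more frequent among other named features with 300 to 2999 summed shGFP counts. There it was found in 129 of 172 without the shared word and 3 of 4 with its reverse complement alone. Those features, unlike members, could have a listed feature on the opposite strand. For members, details are as follows. The overlapping gene was protein-coding for 21 of the 30. By symbol, it was not a listed feature for 29 of the 30. Rps23-ps1, opposite Gm5148, has the symbol of a listed feature that lies elsewhere. This absence follows from the rule for members, which removes only those whose opposite partner is listed. At least 200 words were shared in the opposite orientation with a single other gene by 29 members. Words shared with single genes were counted for members only, so no share over named features stands beside this. Over the whole transcript, the share of 31-base words found in any other gene had a median of 12.5% in members and 6.87% in named features. In the same orientation the medians were 2.90% and 0.72%, and in the opposite orientation 8.0% and 1.19%.

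Ribosomal protein genes or their pseudogenes lay opposite some of the most abundant members. Gm5148, a coding gene model (chr3:37714190-37724490, minus strand), had 13075 and 10214 (shGFP) against 6426 and 9074 counts (shNCAPH2). It shared 397 words in the opposite orientation with Rps23, a protein of the small ribosomal subunit. C330021F23Rik (chr8:3567990-3584939, plus strand) was counted at 11595 and 8857 in shGFP against 5643 and 8061 in shNCAPH2, and shared 368 with Rps23-ps2, a pseudogene of that gene. The members also share 328 words with each other. Wdr38, a WD-repeat protein gene (chr2:38997476-39006168, plus strand), had 9300 and 8413 (shGFP) against 5583 and 6100 counts (shNCAPH2). Opposite it, 734 of its words are those of Rpl35, of the large ribosomal subunit. Uimc1, a BRCA1-complex protein that binds ubiquitin, was counted at 4472 and 3537 in shGFP against 2286 and 2933 in shNCAPH2. It shared 386 words with the pseudogene Gm6344 and 380 with Rpl29. In each of these 4 the lower shGFP value was replicate 2 and the lower shNCAPH2 value was replicate 1, and the groups did not overlap.

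The pseudogenes opposite Gm5148 and C330021F23Rik show how close such copies are. The 90-base windows below are from GENCODE's Rps23-ps1 and Rps23-ps2 (GRCm38), each along its own strand, with the 60-base run that both share exactly with Rps23 in capitals. The table's own Rps23-ps1 entry lies elsewhere on chromosome 3 and is a different place.
Rps23-ps1 (chr3:37714782-37714871, plus strand): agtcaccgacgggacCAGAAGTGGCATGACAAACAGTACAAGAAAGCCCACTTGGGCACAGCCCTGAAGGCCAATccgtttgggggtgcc
Rps23-ps2 (chr8:3584099-3584188, minus strand): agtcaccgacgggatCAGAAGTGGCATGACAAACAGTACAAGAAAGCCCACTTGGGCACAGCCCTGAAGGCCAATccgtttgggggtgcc

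Other partners encode a range of cellular proteins. Gm17494, a processed transcript (chr3:122255958-122293547, minus strand), had 15023 and 11462 (shGFP) against 5626 and 7535 counts (shNCAPH2). It shared 616 words in the opposite orientation with Ppia (cyclophilin A), 462 with Gm6061, the pseudogene that overlaps it, and 267 with Gclm, a subunit of the enzyme that starts glutathione synthesis. Phykpl, a phospholyase of hydroxylysine breakdown, was counted at 9015 and 7683 in shGFP against 4614 and 5290 in shNCAPH2. It shared 728 words with Hnrnpab, an RNA-binding protein. Gm16216, a processed pseudogene (chr19:24289716-24290826, plus strand), had 4389 and 3419 (shGFP) against 2300 and 2960 counts (shNCAPH2). Of its words 59.9% occur in other genes, every such word in the opposite orientation.

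Gm16216 kept 67.4% of its shGFP count, the highest share among members. Its relative log2 fold change was 0.25 ± 0.18 (SE; edgeR adjusted p = 0.999), which did not pass the test, and it turned to -0.57 with equal library sizes. The groups did not overlap in any of these 3 members, and each was higher in shGFP replicate 1 and in shNCAPH2 replicate 2.

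Mettl23, a methyltransferase gene, was counted at 3526 and 3222 in shGFP against 1892 and 1864 in shNCAPH2. It overlaps Srsf2, a splicing factor, with which it shares 430 words. Tmem55b, a lipid phosphatase of lysosomes, had 3630 and 2973 (shGFP) against 1333 and 1623 counts (shNCAPH2). It overlaps Apex1, a DNA repair nuclease, by 877 exon bases. Its 44.8% kept was the lowest share outside the 4 members described first (edgeR relative log2 fold change -0.34 ± 0.18, adjusted p = 0.999). Gm15964, an antisense RNA, was counted at 3166 and 2876 in shGFP against 1828 and 1806 in shNCAPH2. It overlaps Gart, an enzyme of purine synthesis, by 1014 exon bases. Naa25, an auxiliary subunit of an N-terminal acetyltransferase, had 2670 and 2925 (shGFP) against 1710 and 1571 counts (shNCAPH2), and shared 2065 words with Erp29, an endoplasmic reticulum protein. The groups did not overlap in any of these 4.

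Gm15444 was the least even of these. It is an antisense RNA of 388 exon bases (chr3:96209627-96220168, minus strand), and 303 of them overlap the histone gene Hist2h2ab. It was counted at 3961 and 2143 in shGFP against 1408 and 2610 in shNCAPH2. The higher shNCAPH2 value lay above the lower shGFP value, so the groups overlapped. It kept 65.8% of its summed shGFP count.

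Slc7a11 encodes the light subunit of the cystine and glutamate antiporter, which brings in cystine for glutathione synthesis. It was counted at 5780 and 4559 in shGFP against 2217 and 2674 in shNCAPH2. The groups did not overlap, and it kept 47.3% of its shGFP count (edgeR relative log2 fold change -0.25 ± 0.18, adjusted p = 0.999). No opposite exon overlaps it, yet 221 of its words are in Tuba1a, an alpha tubulin, in the opposite orientation. Of 24 genes of cystine uptake, glutathione synthesis and the amino acid response, only Slc7a11 and Gclc were listed, and Gclc was too low to be tested.

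A second set of members held words of very high copy number. A high-copy word is a 31-base word found in the transcripts of at least 100 other genes. At least 10 such words were present in 33 of 54 members (61.1%), against 199 of 1500 named features (13.3%). Among other named features with 300 to 2999 summed shGFP counts, 40 had at least 10 and 136 had fewer. The number was not adjusted for length, and the median of annotated exon bases was 4718 in members and 3303 in named features. The 33 held 19 to 127, with a median of 52, and the other 21 held at most 7. Of the 33, 11 shared at least 200 words with 1 gene in the opposite orientation, against 18 of the other 21. Both measures were chosen after the sequences of the members had been seen.

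Some of these members encode proteins of the nucleus. Zmynd8, a reader of histone marks (chr2:165784152-165899016, minus strand), had 9740 and 10340 (shGFP) against 6905 and 6202 counts (shNCAPH2). Prdm9, a histone methyltransferase that places meiotic recombination sites (chr17:15543079-15564354, minus strand), was counted at 8801 and 9430 in shGFP against 6076 and 5460 in shNCAPH2. Eapp, a protein that binds E2F factors, had 8493 and 9564 (shGFP) against 6305 and 5154 counts (shNCAPH2). In all 3 replicate 2 was the higher shGFP and the lower shNCAPH2 library. Nasp, a chaperone of histones, was counted at 6754 and 7220 in shGFP against 4118 and 3712 in shNCAPH2. Gmeb1, a DNA-binding modulator of glucocorticoid response, had 3572 and 4114 (shGFP) against 2307 and 1893 counts (shNCAPH2). Brd8, a bromodomain protein of an acetyltransferase complex, was counted at 3428 and 3167 in shGFP against 2028 and 2220 in shNCAPH2, the reverse order of libraries. Groups did not overlap in these 6, which kept 54.6% to 65.3% of their shGFP count.

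Others encode proteins of varied roles. Gas2l3, a linker of actin and microtubules (chr10:89408823-89443967, minus strand), had 9477 and 10128 (shGFP) against 6759 and 6078 counts (shNCAPH2). Qsox1, a sulfhydryl oxidase that forms disulfide bonds, was counted at 8352 and 9475 in shGFP against 5690 and 4822 in shNCAPH2. Mrpl13, a mitochondrial ribosomal protein, had 8156 and 9200 (shGFP) against 6022 and 4897 counts (shNCAPH2). All 3 carry the reverse complement of the shared word. Capza2, a subunit of the actin capping protein, was counted at 5761 and 6388 in shGFP against 3437 and 3158 in shNCAPH2. Plekha3, a phosphoinositide-binding protein of the Golgi, had 5182 and 6022 (shGFP) against 3707 and 3007 counts (shNCAPH2). Lztr1, an adaptor of a ubiquitin ligase, was counted at 4812 and 4751 in shGFP against 2790 and 2694 in shNCAPH2. The libraries of a group differed least in Lztr1, and the groups did not overlap in any of these 6.

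H2-Bl, a polymorphic pseudogene of the major histocompatibility class I family, had 5526 and 6092 (shGFP) against 3466 and 3193 counts (shNCAPH2). It shared 177 words with Gm10499 and 151 with H2-Q1 in the same orientation, so its count is uncertain among relatives of its family. Gm15541, an antisense RNA opposite Prx, was counted at 3290 and 3598 in shGFP against 2203 and 1774 in shNCAPH2. Harbi1, a gene derived from a DNA transposon, had 2710 and 2768 (shGFP) against 1795 and 1622 counts (shNCAPH2). All 3 were separate between groups and had more counts in shGFP replicate 2 than in replicate 1.

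Apart from Gm12895 and Gm12896, the 23 members below the 30 most abundant had 1484 to 2662 counts in shGFP replicate 1 and 1404 to 2714 in replicate 2. In shNCAPH2 they had 810 to 1550 and 861 to 1693. They kept 48.4% to 67.3%, and the groups did not overlap in any of them. Words shared in the same orientation with another gene marked a few, and whether these were copies or overlaps at the same place was not checked. Ing4, a tumour suppressor of the ING family, shared 1825 words with Gm44597. Prdx1, a peroxidase, shared 298 with Gm21399. Gm15645 shared 1210 with Gm8982 and 226 with Odc1, the first enzyme of polyamine synthesis. Overlaps on the opposite strand were longest in Slirp, which shared 2884 words with the splicing factor Snw1, in Fam57a (2850 with Gemin4), in Kctd18 (2374 with Sgo2a, a guardian of centromeric cohesin) and in Gm10143 (1881 with the nuclease Fen1). Ccdc38 shared 513 words with the spliceosome gene Snrpf, and Prpf39 shared 539 with Fkbp3, a prolyl isomerase. Prpf39 kept 67.3%, and its relative log2 fold change of 0.25 turned to -0.57 with equal library sizes.

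**Figure D3:**
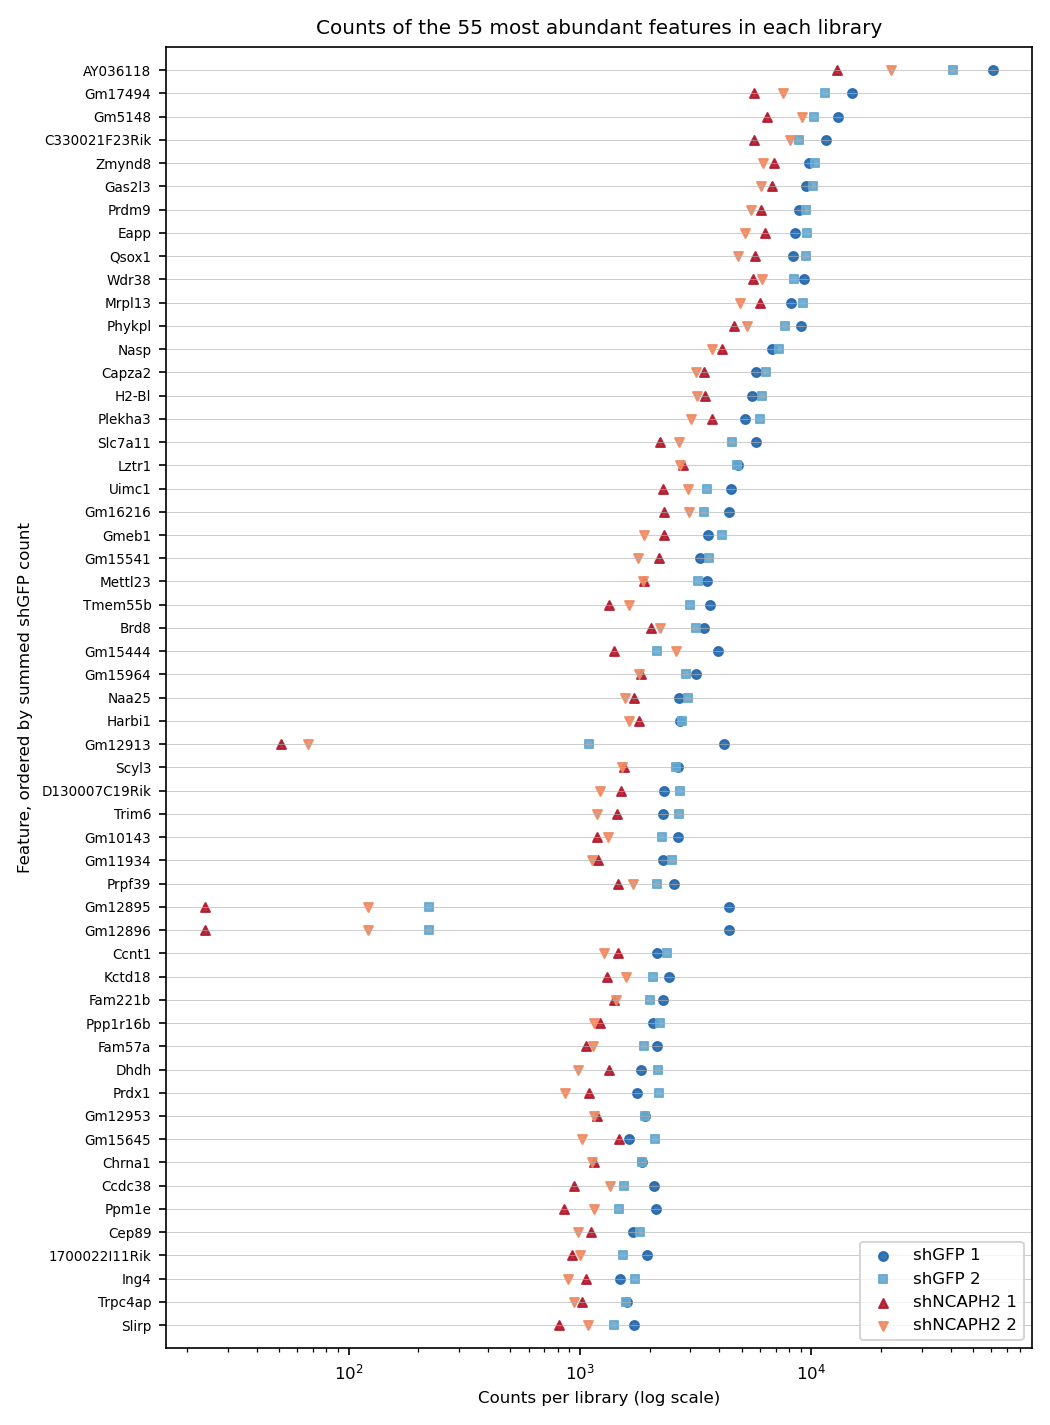
Each row is 1 of the 55 members, ordered by summed shGFP count, and the 4 symbols give its count in each library on a log x axis. The shNCAPH2 symbols lie left of the shGFP symbols in 54 rows, Gm15444 being the exception, and Gm12895, Gm12896 and Gm12913 have the widest spread.

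The libraries of a group differed in opposite directions for different members. Leaving out Gm12913, Gm12895 and Gm12896, whose libraries differed most, the ratio of shGFP replicate 2 to replicate 1 ran from 0.541 to 1.30 over 52 members, with a median of 0.994. The ratio of shNCAPH2 replicate 2 to replicate 1 ran from 0.689 to 1.85, with a median of 0.968. The SD of the log2 ratio over these members was 0.265 in shGFP and 0.312 in shNCAPH2. Counting error alone, which leaves out all variation between libraries, would give each ratio an SD of at most 0.052 and 0.067. The totals of named counts had ratios of 0.846 and 1.12. Scaled to those totals, the median absolute log2 ratio between the libraries of a group was 0.323 for members in shGFP and 0.283 in shNCAPH2. For 178 other named features with 300 to 2999 summed shGFP counts it was 0.176 and 0.198. Over all named features, most of them at far lower counts, it was 0.388 (1517 features) and 0.424 (1268 with a count in both libraries). The members' values thus lay above those of the 178 and below those of all named features. In counts as deposited, without scaling, they were 0.204 and 0.239.

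The 2 ratios mirrored each other. Across the 52 members, the log2 ratio in shGFP and that in shNCAPH2 had a Pearson r of -0.967 and a Spearman rho of -0.964. Across the 178 less abundant features r was -0.398 and rho -0.47, and across 1025 features under 300 counts they were 0.065 and 0.085. These are descriptions across genes, which are not independent, since all points share the same 4 libraries. In counts as deposited, 25 of 55 members were higher in shGFP replicate 2 and lower in shNCAPH2 replicate 2, 24 had the reverse order, and 6 had neither.

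The high-copy words went with that order. Of the 33 members with at least 10 such words, 25 were higher in shGFP replicate 2 and lower in shNCAPH2 replicate 2. The reverse held for 4 (Gm17494, Phykpl, Slc7a11 and Brd8), and Lztr1, Scyl3, Gm12953 and Trpc4ap had neither. Of the 21 with fewer words, 0 were of the first kind and 19 of the reverse, with Mettl23 and Gm15964 of neither. The median ratio of replicate 2 to replicate 1 was 1.09 in shGFP and 0.899 in shNCAPH2 for the 33, and 0.791 and 1.28 for the 21. After TMM scaling the split was 30, 2 and 1 for the 33, and 5, 10 and 6 for the 21.

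The shared word was also set against this order. Of the 23 members with its reverse complement alone, 18 were higher in shGFP replicate 2 and lower in shNCAPH2 replicate 2, 1 was the reverse and 4 were neither. Dhdh, with both orientations, had the first order, and Gm17494, the only member with the forward letters alone, had the reverse. Of the 29 members without the word, 6 and 21 had the respective orders and 2 neither. After TMM scaling the counts were 22, 0 and 1 for the 23 members and 12, 11 and 6 for the 29, so the reverse order was no longer the more frequent among the 29. At least 200 words were shared with 1 gene in the opposite orientation by 19 of these 29.

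Less abundant features had a different balance in counts as deposited. Among named features with 300 to 2999 summed shGFP counts, 11 of 40 with at least 10 high-copy words had the first order and 19 the reverse. Of 136 with fewer, 3 had the first order and 108 the reverse. The median ratio in shGFP was 0.956 and 0.798 respectively, and in shNCAPH2 1.07 and 1.20. After TMM scaling the counts were 23 against 6 for the 40 and 32 against 59 for the 136. These leaned the same way as in members, at 30 against 2 and 5 against 10. Members with at least 10 high-copy words and with fewer kept a median of 59.0% and 60.7% of their shGFP count. For the 40 and the 136 the medians were 62.7% and 58.5%.

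**Figure D4:**
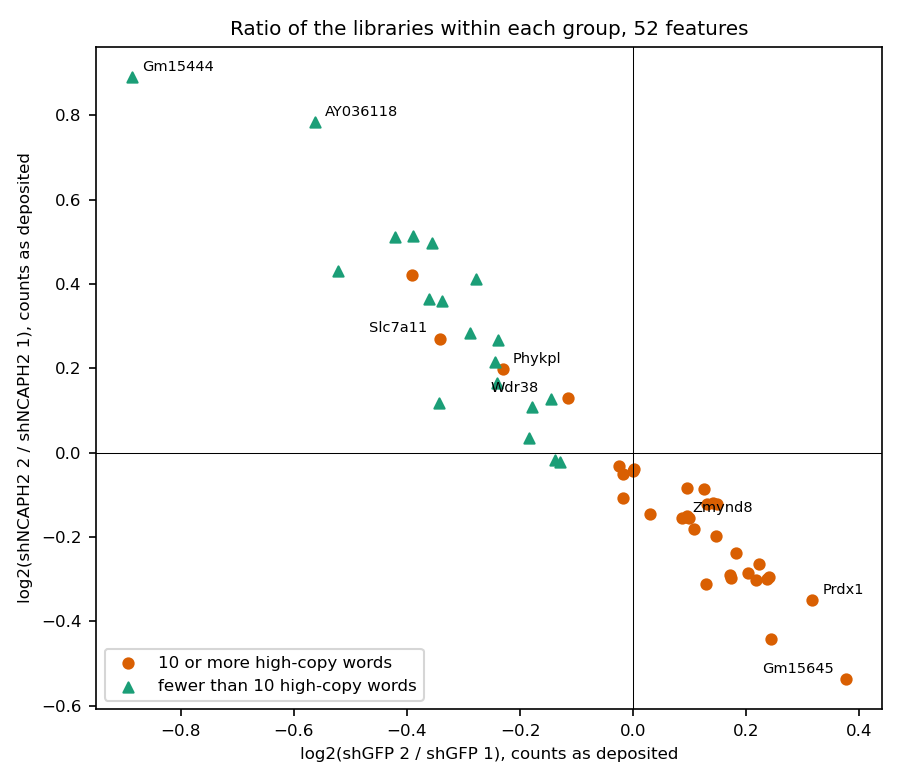
Each point is 1 of 52 members (without Gm12913, Gm12895 and Gm12896), with the log2 ratio of shGFP replicate 2 to replicate 1 on the x axis and that of the shNCAPH2 libraries on the y axis, from counts as deposited. Points run from upper left (Gm15444, ratios of 0.541 and 1.85) to lower right (Gm15645, 1.30 and 0.689), and the features with 10 or more high-copy words fill the lower right.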

How the data were processed

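The authors deposited raw counts per feature for 4 total-RNA libraries, 1 table each. Per the submitters' processing notes, TopHat2 2.0.10, edgeR and the build mm9 were used, with no role given. Feature positions followed GRCm38. The counting annotation and strand setting are not given in the sources used here. Rows with no symbol (101, with 22.2% to 23.3% of a library's counts) were left out.

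Counts were tested with edgeR 4.0.16 in R 4.3.3 (quasi-likelihood, TMM, filterByExpr, group alone, 2 residual degrees of freedom) over all named features, with Benjamini-Hochberg adjustment. The script was tested on simulated data. Members and lists were chosen with earlier results of these data known. The 30 members with the highest summed shGFP count were named with their counts, the others by range, and a few of those by their shared sequence. Words of 31 bases from GENCODE release 21 transcripts were looked up in the transcripts of all other genes, since no genome sequence or repeat annotation was used. Same-numbered libraries did not deviate together over the 896 tested features (r = -0.06), and they deviated in opposite directions over the 55 members (r = -0.93). Numbers therefore do not pair them. The fit by group alone leaves the members' mirrored differences within the spread that its SEs measure. DESeq2 1.42.0, other scalings, no filter, a replicate block and left-out libraries were alternatives.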

Additional observations from a re-analysis of the deposited data

How the results depend on the processing

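The count of listed features called lower was 9 in the edgeR fit. It was 16 with RLE size factors, 284 with equal library sizes, 21 without a filter, 6 with DESeq2 and 4 with a replicate block, and 12 to 18 when 1 library was left out. Gm12895 and Gm12896 are 1 measurement but enter the counts of members here, and the fold changes tallied below, as 2. For members the count was 1 in the edgeR fit. It was 3 with RLE size factors (1.79% of tested features called), 44 with equal sizes (30.6%), 3 without a filter (1.38%), 1 with DESeq2 (0.396%), 1 with the replicate block (0.446%), and 1 to 4 with 1 library left out (1.10% to 2.11%). Replicate numbers crossed between groups, tried after seeing the data, gave 9 listed features and 4 members called (1.0%). Equal sizes turned Prpf39 to -0.57 and Gm16216 to -0.57 on the relative log2 scale. Gm12895, Gm12896 and AY036118 did not pass in the edgeR fit and passed in 1 or more alternatives. Slc7a11 and Tmem55b passed only with equal library sizes, the setting in which 44 members passed. Of 80 alternative fold changes of 8 members, in 61 neither the direction nor the side of the threshold changed, 17 came to pass it and 2 changed direction; the cause was not tested.

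The median share kept by members was 56.3% to 59.1% with 1 library left out, 56.3% being without shNCAPH2 replicate 1. The median absolute log2 ratio between libraries was 0.326 (shGFP) and 0.272 (shNCAPH2) after TMM scaling, and 0.204 and 0.239 in counts as deposited. The median share of a member's words found elsewhere was 12.5%, 13.7% with words of 25 bases and 1.81% for words in at least 10 other genes. A search of whole gene spans was not run, since no genome sequence was used. Depth limits the members little as a set, leaving out Gm12913, Gm12895 and Gm12896. Across those 52, counting error was small beside the spread of the ratios between libraries, which 2 libraries a group estimate poorly. In shNCAPH2, Gm12913 had 51 and 67 counts, and Gm12895 and Gm12896 had 24 and 121. Counting error there gave the log2 ratio an SD of 0.268 for Gm12913 and 0.322 for the pair.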
